A study of Mus musculus with 6 samples.

Results

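The genes described here carry peptides to the surface of cells for inspection by T lymphocytes. They are the 10 genes H2-K1, H2-D1, H2-T23, B2m, Tap1, Tap2 and Tapbp of the class I route (7 genes) and Cd74, H2-Aa and H2-Ab1 of the class II route (3 genes), taken by symbol from the deposited expression table, and all 10 were among its 20323 analysed genes. RNA came from GFP-positive hippocampal cells of Nestin-CreERT2;Rosa26-mGFP mice, in which the Nestin promoter drives the recombinase and membrane GFP then stays on in the cell and its descendants. Every mouse had been fed cuprizone, which damages myelin, for 10 weeks and then recovered for 4 weeks, so no animal without cuprizone is part of the comparison. The 3 Vehicle mice were given saline with 0.1% bovine serum albumin, and the 3 Nrg mice were given Neuregulin 1 beta 1 (Nrg-1β1), a growth factor for ErbB receptors. Its dose was 60 per kg per day, in µg by the series' design text and in g by the sample labels. Each library is 1 brain. The labels used here give neither the age and sex of the mice nor the tamoxifen schedule.

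In the class I route, peptides cut by the proteasome are pumped into the endoplasmic reticulum by the transporter of Tap1 and Tap2. There they are loaded, with the help of tapasin (Tapbp), onto a heavy chain such as H2-K1 or H2-D1. The heavy chain is paired with the light chain B2m. In the class II route, an alpha and a beta chain (H2-Aa and H2-Ab1) are assembled on the invariant chain Cd74 and receive peptides from endosomes after proteases have removed the invariant chain. In the brain, class I genes are known from endothelium and microglia and at lower levels from neural cells, while class II is a feature of activated microglia, border macrophages and dendritic cells. Interferon-γ raises both routes through IRF1 and through the transactivators NLRC5 for class I and CIITA for class II.

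The promoters show how far the members share control sequence. RefSeq windows of 300 bases (GRCm38.p6, 250 before to 50 after the annotated start) were matched for 7 of the 10 members, and 5 are printed because they belong to the heavy chains, the light chain and a class II chain that the results turn on. They lie at chr17:34000298-34000597 (minus strand, H2-K1), chr17:35262844-35263143 (plus, H2-D1), chr17:36032652-36032951 (minus, H2-T23), chr2:122147437-122147736 (plus, B2m) and chr17:34287774-34288073 (minus, H2-Aa), each read 5′ to 3′ along its gene. Capitals mark matches, on either strand, of an NF-κB site, the interferon regulatory factor (IRF) core AANNGAAA, the CRE core TGACG and the CCAAT box CCAAT.
H2-K1: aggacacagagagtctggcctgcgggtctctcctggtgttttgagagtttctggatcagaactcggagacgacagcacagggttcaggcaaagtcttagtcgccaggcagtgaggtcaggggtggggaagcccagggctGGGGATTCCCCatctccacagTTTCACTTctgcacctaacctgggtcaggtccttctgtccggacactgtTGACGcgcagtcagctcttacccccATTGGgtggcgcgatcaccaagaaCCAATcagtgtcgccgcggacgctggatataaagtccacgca
H2-D1: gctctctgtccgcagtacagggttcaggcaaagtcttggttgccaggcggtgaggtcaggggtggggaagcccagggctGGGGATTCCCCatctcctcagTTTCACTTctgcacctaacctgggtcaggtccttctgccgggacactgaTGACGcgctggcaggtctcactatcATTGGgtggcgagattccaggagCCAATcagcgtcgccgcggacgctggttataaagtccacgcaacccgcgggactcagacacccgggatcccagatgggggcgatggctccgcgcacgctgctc
H2-T23: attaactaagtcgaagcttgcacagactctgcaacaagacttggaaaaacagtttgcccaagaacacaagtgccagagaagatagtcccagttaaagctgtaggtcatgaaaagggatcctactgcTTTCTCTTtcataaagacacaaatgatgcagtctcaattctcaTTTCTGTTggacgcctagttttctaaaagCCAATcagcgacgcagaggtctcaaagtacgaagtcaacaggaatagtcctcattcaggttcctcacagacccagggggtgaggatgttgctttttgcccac
B2m: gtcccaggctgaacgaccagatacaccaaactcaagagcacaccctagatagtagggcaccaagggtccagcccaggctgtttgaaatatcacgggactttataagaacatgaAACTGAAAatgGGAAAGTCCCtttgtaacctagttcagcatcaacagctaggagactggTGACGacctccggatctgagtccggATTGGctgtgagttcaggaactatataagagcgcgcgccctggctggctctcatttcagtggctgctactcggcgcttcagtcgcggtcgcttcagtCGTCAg
H2-Aa: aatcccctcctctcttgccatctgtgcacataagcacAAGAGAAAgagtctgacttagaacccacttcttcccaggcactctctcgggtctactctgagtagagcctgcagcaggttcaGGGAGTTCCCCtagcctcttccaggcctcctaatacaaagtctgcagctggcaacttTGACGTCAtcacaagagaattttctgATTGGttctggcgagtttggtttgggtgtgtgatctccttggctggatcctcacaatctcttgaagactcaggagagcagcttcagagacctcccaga

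H2-K1 and H2-D1 held the same series of matches in the same order, an NF-κB site, an IRF core, a CRE core and then a pair of CCAAT boxes, and their windows shared an identical stretch of 47 bases. The NF-κB stretch ran from -111 to -101 in H2-K1 and from -171 to -161 in H2-D1, counted from the annotated start, and matched on both strands in overlapping frames. The H2-T23 window had a pair of IRF cores, at -124 and -81, and 1 CCAAT box, with no CRE core or NF-κB site in these letters. B2m had its IRF core at -137, beside an NF-κB site at -126, and H2-Aa had a CRE core on both strands between -74 and -67, followed by a CCAAT box at -48. Over 27025 promoters of the same length, 8.18% held an NF-κB site, 24.2% an IRF core, 21.0% a CRE core and 37.9% a CCAAT box. All 4 kinds were found together in 34 promoters (0.126%), among them those of H2-K1, H2-D1, B2m and H2-Aa. The motifs were chosen because MHC promoters are known for them, so these matches are a description. The windows of Tap1 and Psmb9, an immunoproteasome subunit gene, point away from each other and overlap by 275 bases.

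**Figure D1:**
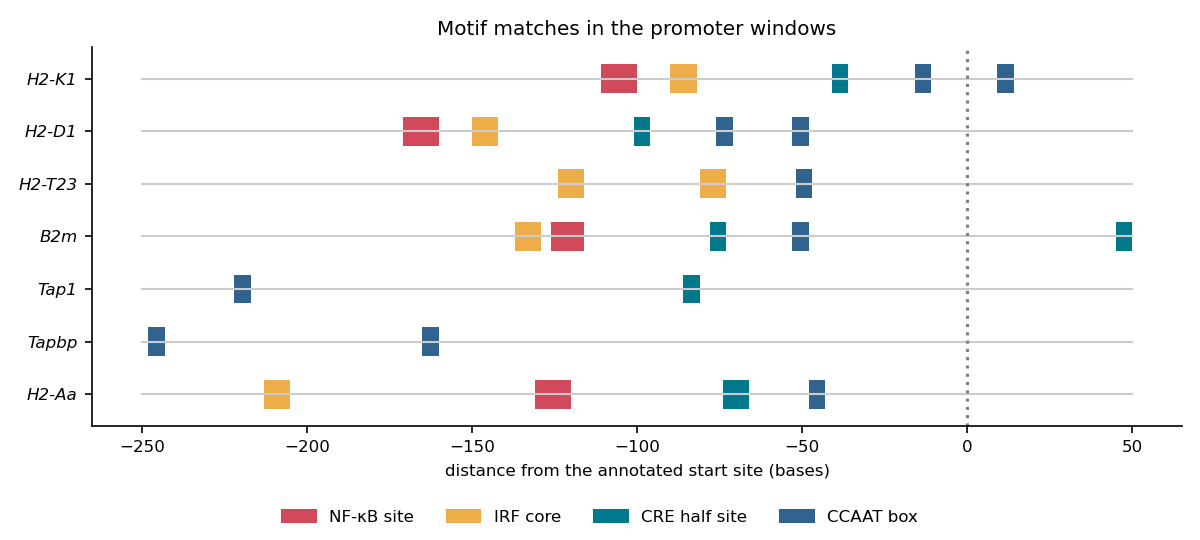
Positions of motif matches (coloured bars) in the promoter windows of 7 members. The horizontal axis is the distance from the annotated start site in bases. H2-K1 and H2-D1 show the same order of matches, offset from each other, while Tap1 and Tapbp show no NF-κB site or IRF core.

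The depth of the libraries limits every value. The vehicle libraries held 72953034, 1075813 and 47076006 reads and the Nrg libraries 567073, 662909 and 1327003, so vehicle libraries 1 and 3 were deep and the other 4 shallow, and depth moved with the group. All 10 members had at least 308 reads in the deep libraries, while at least 10 reads were reached by 8 members in vehicle library 2 and by 4, 4 and 5 in the Nrg libraries. Vehicle libraries 1 and 2 also stood apart in 4 Y-linked genes, with 143 and 2 reads against 3763 in vehicle library 3 and 57, 49 and 34 in the far shallower Nrg libraries. Reads of Xist numbered 3255, 216 and 1045 for vehicle libraries 1 to 3 and 2, 3 and 1 for the Nrg libraries, so that vehicle library 3 was like the Nrg libraries in its Y-linked reads and not in Xist, and the part of this in the results was not tested. Reads for all 9 markers of neural stem and progenitor cells, the labelled cell type, were found in both groups, and so were reads for every member of the oligodendrocyte, astrocyte, microglial and endothelial marker lists.

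**Figure D2:**
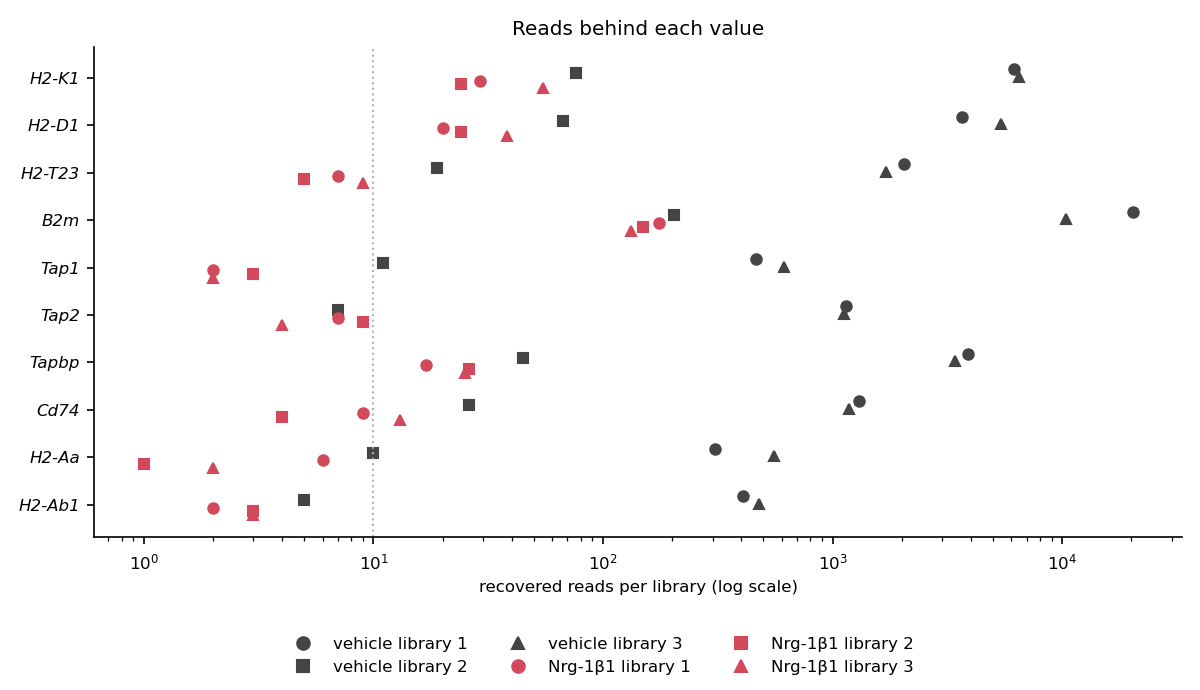
Recovered reads behind each member (log axis) in each of the 6 libraries, with a dotted line at 10 reads. The deep vehicle libraries 1 and 3 lie at 308 to 20273 reads, and the Nrg libraries at 1 to 176.

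The comparison of Nrg with Vehicle asks how the growth factor alters transcripts of these cells after long demyelination. All 10 members were lower on average in Nrg-treated mice, and none passed the test. H2-T23, H2-K1 and H2-D1 came nearest, with log2 differences of -1.51, -1.14 and -1.09, and B2m differed least, by -0.26. At an adjusted p under 0.05 (limma) 0 of 10 members were called, where 0.625% of all genes were called lower and 0.438% higher. At an unadjusted p under 0.05, 6 of 10 were lower (5 of 7 in class I, 1 of 3 in class II) and 0 higher, against 6.86% lower and 6.15% higher over all genes. With limma-voom on the recovered reads, which 6 members entered, 0 were called and 5 lay under an unadjusted p of 0.05. The groups did not overlap for 7 of 10 members, all lower in Nrg, where this held for 10.4% of all genes (7.37% did not overlap with Nrg higher). The median difference was -1.09 over the class I members and -1.07 over the class II members, against 0.03 over all genes. Values are log2(normalized count + 4), and the added 4 shrinks differences at few reads. Counting error at few reads can also shift a mean of log2 values, and that shift was not measured. In bulk RNA, fewer cells of a type and less RNA per cell cannot be told apart.

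**Figure D3:**
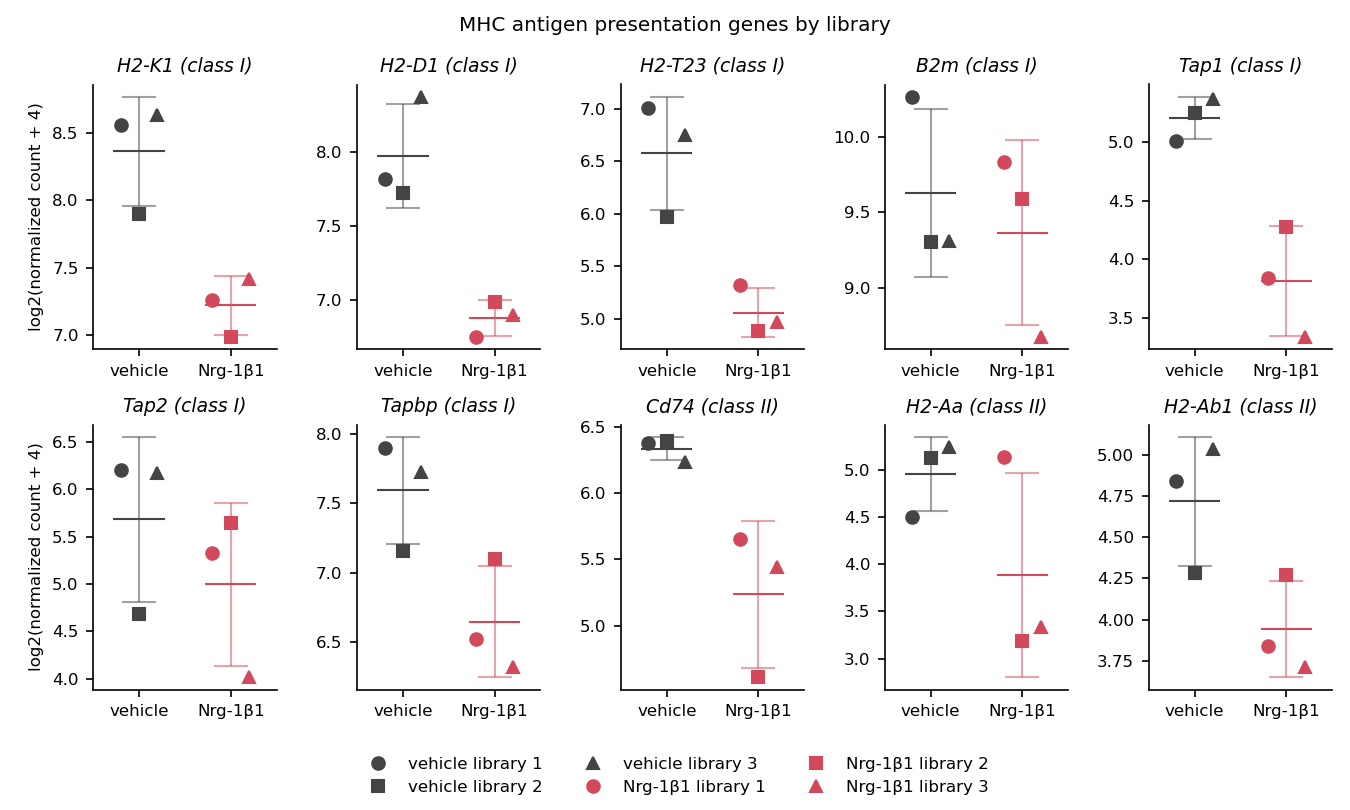
The log2(normalized count + 4) of each member in the 3 vehicle (grey) and 3 Nrg-1β1 (red) libraries, with the group mean and SD. The groups are apart for H2-K1, H2-D1, H2-T23, Tap1 and Cd74, nearly touch for Tapbp and H2-Ab1, and overlap for B2m, Tap2 and H2-Aa.

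H2-K1, a classical heavy chain that presents peptides to CD8 T cells, had log2 values of 8.56, 7.90 and 8.63 in vehicle libraries 1 to 3 and of 7.26, 6.98 and 7.42 in Nrg libraries 1 to 3. The groups did not overlap, and the shallow vehicle library 2, with 76 reads, was the vehicle library nearest to the Nrg libraries, which had 29, 24 and 55. The means were 8.36 ± 0.41 and 7.22 ± 0.22 (SD, n = 3 each), and Nrg lay below vehicle by -1.14 ± 0.30 (SE) with an adjusted p = 0.0651 (limma). H2-D1, the other classical heavy chain, stood at 7.82, 7.72 and 8.37 in vehicle and at 6.75, 6.98 and 6.90 in Nrg. Here the gap between the lowest vehicle and the highest Nrg library was 0.74, wider than the Nrg range, and the difference was -1.09 ± 0.29 (SE, adjusted p = 0.0753, limma). Vehicle library 3 was the highest library for both classical chains, and vehicle library 2 was the lowest vehicle library for both.

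H2-T23 encodes Qa-1, a non-classical heavy chain recognised by inhibitory receptors of natural killer cells. Its log2 values were 7.01, 5.97 and 6.75 in vehicle and 5.33, 4.88 and 4.97 in Nrg. Every Nrg library was under every vehicle library, and the difference of -1.51 ± 0.38 (SE, adjusted p = 0.0589, limma) was the largest among the members. It rested on 7, 5 and 9 reads in the Nrg libraries against 2057, 19 and 1713 in vehicle. In Nrg library 2 the normalized count of 25.5 had an exact Poisson interval of 8.29 to 59.6 (95%, counting error only), which reaches the 58.7 of vehicle library 2. The heavy chains are near copies of other genes, so reads could have been split between them by the authors' counting. Of all 50-base windows of the longest GENCODE M21 coding transcript, 8.79% in H2-K1, 14.3% in H2-D1 and 28.8% in H2-T23 also occurred in a transcript of another gene, against 0% in B2m, Cd74, H2-Aa and H2-Ab1.

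B2m, the light chain shared by all class I molecules, did not follow the heavy chains. Its log2 values were 10.27, 9.30 and 9.31 in vehicle and 9.83, 9.59 and 8.67 in Nrg, with 133 or more reads in every library. Nrg libraries 1 and 2 lay above vehicle libraries 2 and 3, so the groups overlapped, and the difference was -0.26 ± 0.35 (SE, adjusted p = 0.752, limma). Its sign was not stable, with 0.0588 without vehicle library 1 and 0.0854 without Nrg library 3. The summed normalized count of H2-K1, H2-D1 and H2-T23, taken per normalized count of B2m without correction for length, was 0.587, 0.798 and 1.30 in vehicle and 0.318, 0.353 and 0.767 in Nrg. Nrg library 3 overlapped vehicle in this ratio. The sum of Tap1, Tap2 and Tapbp per B2m was 0.271, 0.310 and 0.494 in vehicle and 0.148, 0.253 and 0.233 in Nrg, without overlap. The gap was narrow, at 0.271 in vehicle library 1 against 0.253 in Nrg library 2, and the Nrg sums held only 26, 38 and 31 reads.

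The peptide transporter genes were measured less firmly. Tap1 had 5.01, 5.25 and 5.36 in vehicle and 3.84, 4.27 and 3.33 in Nrg on the log2 scale, without overlap. The Nrg values came from 2, 3 and 2 reads, and the difference was -1.39 ± 0.49 (SE, adjusted p = 0.194, limma). Tap2, its partner in the transporter, was at 6.20, 4.68 and 6.17 in vehicle and at 5.33, 5.64 and 4.01 in Nrg. The groups overlapped, since vehicle library 2, with 7 reads, lay under Nrg libraries 1 and 2. Its difference of -0.69 ± 0.51 (SE, adjusted p = 0.628, limma) became 0.32 with vehicle library 2 as the only vehicle library, -0.20 without Nrg library 3 and -1.19 without vehicle library 2.

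Tapbp encodes tapasin, which ties the empty heavy chain to the transporter. Its log2 values were 7.90, 7.16 and 7.72 in vehicle and 6.52, 7.10 and 6.32 in Nrg. The groups were apart by only 0.06, between vehicle library 2 and Nrg library 2, and the difference was -0.95 ± 0.32 (SE, adjusted p = 0.178, limma).

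Among the class II members, Cd74 was the most even in vehicle, with log2 values of 6.38, 6.40 and 6.23, against 5.66, 4.61 and 5.44 in Nrg. The shallow vehicle library 2 was as high as the deep ones for this gene, and all Nrg libraries lay below them. The difference was -1.10 ± 0.38 (SE, adjusted p = 0.189, limma), from 9, 4 and 13 reads in the Nrg libraries. H2-Aa, the alpha chain, had 4.50, 5.12 and 5.24 in vehicle and 5.13, 3.19 and 3.33 in Nrg. Nrg library 1 was as high as vehicle library 2 while the other Nrg libraries were low, so the groups overlapped (difference -1.07 ± 0.57 SE, adjusted p = 0.453, limma). Its Nrg reads were 6, 1 and 2. H2-Ab1, the beta chain, had 4.84, 4.28 and 5.03 in vehicle and 3.84, 4.27 and 3.71 in Nrg. Vehicle library 2 and Nrg library 2 differed by 0.01 there, at 5 and 3 reads, and the difference was -0.78 ± 0.50 (SE, adjusted p = 0.551, limma). Without Nrg library 1 the difference of H2-Aa was -1.69.

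Since depth moved with the group, the values among shallow libraries alone bear on the comparison. With vehicle library 2 set against the 3 Nrg libraries, 8 of 10 members were lower, where the median difference over all genes was 0.07. The differences were -0.68 for H2-K1, -0.84 for H2-D1, -0.91 for H2-T23, -1.43 for Tap1 and -0.51 for Tapbp. The class II differences were -1.16 for Cd74, -1.24 for H2-Aa and -0.34 for H2-Ab1. B2m (0.0648) and Tap2 (0.32) were higher in Nrg. This rests on 1 vehicle mouse, so it gives sizes of differences only and shows no spread between vehicle mice. The deep libraries hold vehicle samples only, so no value among them can be had. Vehicle library 3 was like the Nrg libraries in Y-linked reads but not in Xist. With vehicle library 3 as the only vehicle library, the differences were -1.41 for H2-K1, -1.50 for H2-D1 and -1.69 for H2-T23. They were 0.0529 for B2m and -1.35 for H2-Aa.

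The other genes of the 2 routes gave few calls, all in endosomal proteases. Of 10 measured genes of the class II chain and loading list, 2 fell, 0 rose and 8 did not pass (median -0.79). Ctss, whose protease cathepsin S removes the invariant chain from class II molecules and which microglia express strongly, had log2 values of 11.31, 10.40 and 10.12 in vehicle and 8.57, 9.04 and 9.22 in Nrg. It fell by 1.67 ± 0.33 (SE, adjusted p = 0.0194, limma), with at least 73 reads in each library. Lgmn, which encodes the endosomal protease legumain, had 9.92, 9.27 and 9.15 in vehicle and 8.01, 7.87 and 8.39 in Nrg. It fell by 1.36 ± 0.29 (SE, adjusted p = 0.0298, limma). Microglial markers were lower in the same group, and their part in both calls was not tested. Neither call held when any single library was left out, with adjusted p-values of 0.0984 to 0.355 for Ctss and 0.102 to 0.335 for Lgmn. Over all alternatives the differences stayed between -1.91 and -1.18 for Ctss and between -1.57 and -1.06 for Lgmn. The remaining class II genes H2-Eb1, H2-DMa, H2-DMb1, H2-DMb2, H2-Oa, H2-Ob and Ifi30 and the protease gene Ctsl all had negative differences, from -1.05 to -0.26, without passing. Ctsl had 274 reads over all Nrg libraries. The others had 1 (H2-DMb2) to 12 (Ifi30), too few for their signs alone to carry a direction.

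In the list of class I peptide supply and loading, 0 of 10 genes passed (median -0.21), 6 with a negative and 4 with a positive difference. The immunoproteasome subunit genes Psmb8 and Psmb9, which interferon induces together with Tap1, differed by -1.64 ± 0.68 and -1.34 ± 0.57 (SE, adjusted p = 0.293 and 0.310, limma). Psmb8 was uneven, with a difference of -0.82 without Nrg library 1, at 6.15, 4.28 and 5.43 in vehicle and at 2.00 (0 reads), 3.83 and 5.10 in Nrg. Psmb9 rested on 361, 2 and 273 vehicle reads and 1, 1 and 0 Nrg reads. Their partner Psmb10 differed by -0.06 ± 0.38 (SE, adjusted p = 0.951, limma), with a sign that turned under quantile normalization and under centring on library medians. Pdia3, which encodes the disulphide isomerase ERp57 of the loading complex, was without overlap at 8.81, 8.22 and 9.03 in vehicle and 7.75, 7.43 and 7.76 in Nrg, a difference of -1.04 ± 0.29 (SE, adjusted p = 0.0919, limma). Canx, the chaperone calnexin, differed by 0.00 ± 0.28 (SE).

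Of 13 measured class I heavy chain genes beside the members, 0 passed and 7 had a negative and 6 a positive difference (median -0.02). H2-Q4, which is not a member but lies near them in the MHC, was at 5.77, 5.36 and 6.32 in vehicle and at 3.20, 5.11 and 4.26 in Nrg (difference -1.63 ± 0.51 SE, adjusted p = 0.135, limma). Its Nrg values came from 1, 6 and 5 reads. H2-Q2 differed in the other direction, by 1.46 ± 0.54 (SE, adjusted p = 0.224, limma), on 1 to 7 reads in any library. The 6 genes with a positive difference had 1 to 11 reads over all Nrg libraries, and the 7 with a negative difference had 2 to 36. In those libraries 1 read is worth 3.04 to 5.17 normalized counts, so signs alone at so few reads, positive or negative, carry no direction. The same holds for the signs alone of members with few reads over all Nrg libraries. These were Tap1 (7), H2-Ab1 (8), H2-Aa (9), Tap2 (20), H2-T23 (21) and Cd74 (26). H2-T22, which had the 36 Nrg reads, differed by -0.02 ± 0.40 (SE, adjusted p = 0.988, limma). Among class I-like genes, which resemble heavy chains but serve other tasks, 0 of 5 passed (median -0.42). Fcgrt, the neonatal Fc receptor that recycles immunoglobulin G and pairs with B2m, just missed the threshold, at 6.96, 6.68 and 7.19 in vehicle and 5.13, 4.61 and 6.15 in Nrg (difference -1.65 ± 0.40 SE, adjusted p = 0.0510, limma). Procr, the endothelial protein C receptor, differed by -0.71 ± 0.52 (SE, adjusted p = 0.619, limma), and by -0.34 without vehicle library 3.

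The regulators of the MHC genes gave no call. Of 9 transactivator genes 0 passed (median 0.01). Nlrc5, the class I transactivator, rested on 112, 2 and 224 vehicle reads and 4, 2 and 0 Nrg reads, with a difference of -0.15 ± 0.63 (SE, adjusted p = 0.927, limma) whose sign turned under centring on library medians. Ciita, the class II transactivator, rested on 33, 3 and 55 vehicle reads and 1, 2 and 1 Nrg reads (0.22 ± 0.53 SE, adjusted p = 0.866, limma). Rfx5, a subunit of the factor that binds the X box of MHC promoters, differed by 0.73 ± 0.46, and Nfya, a subunit of the CCAAT-binding factor, by -0.62 ± 0.38 (SE, adjusted p = 0.538 and 0.527, limma). In the interferon signalling list 0 of 13 measured genes passed, 10 with a negative difference (median -0.53). The groups did not overlap for 4 of them with Nrg lower and for 1 with Nrg higher, against 10.4% and 7.37% of all genes. Irf1, which carries the interferon-γ signal to MHC promoters, was at 5.61, 5.82 and 5.86 in vehicle and at 5.13, 3.83 and 4.47 in Nrg, without overlap (-1.28 ± 0.45 SE, adjusted p = 0.191, limma). Its values rested on 6, 2 and 6 reads in the Nrg libraries and on 17 in vehicle library 2. Ifngr1, the ligand-binding chain of the interferon-γ receptor, was even within groups, at 7.36, 7.19 and 7.35 against 6.52, 6.42 and 6.21 (-0.92 ± 0.30 SE, adjusted p = 0.155, limma). Ifngr2, the other chain of that receptor, was higher in Nrg without overlap, at 6.84, 6.81 and 6.19 against 7.16, 7.30 and 6.90 (0.51 ± 0.31 SE, adjusted p = 0.530, limma). In the NF-κB list 0 of 7 passed (median -0.51), with Rela at -0.64 and Tnf at -1.02. In the costimulation list 0 of 5 passed (median -0.57), with Icam1, an adhesion molecule of endothelium and leukocytes, at -1.43 and Cd86, which gives T cells a costimulatory signal, at -1.16 (-0.56 without Nrg library 2).

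**Figure D4:**
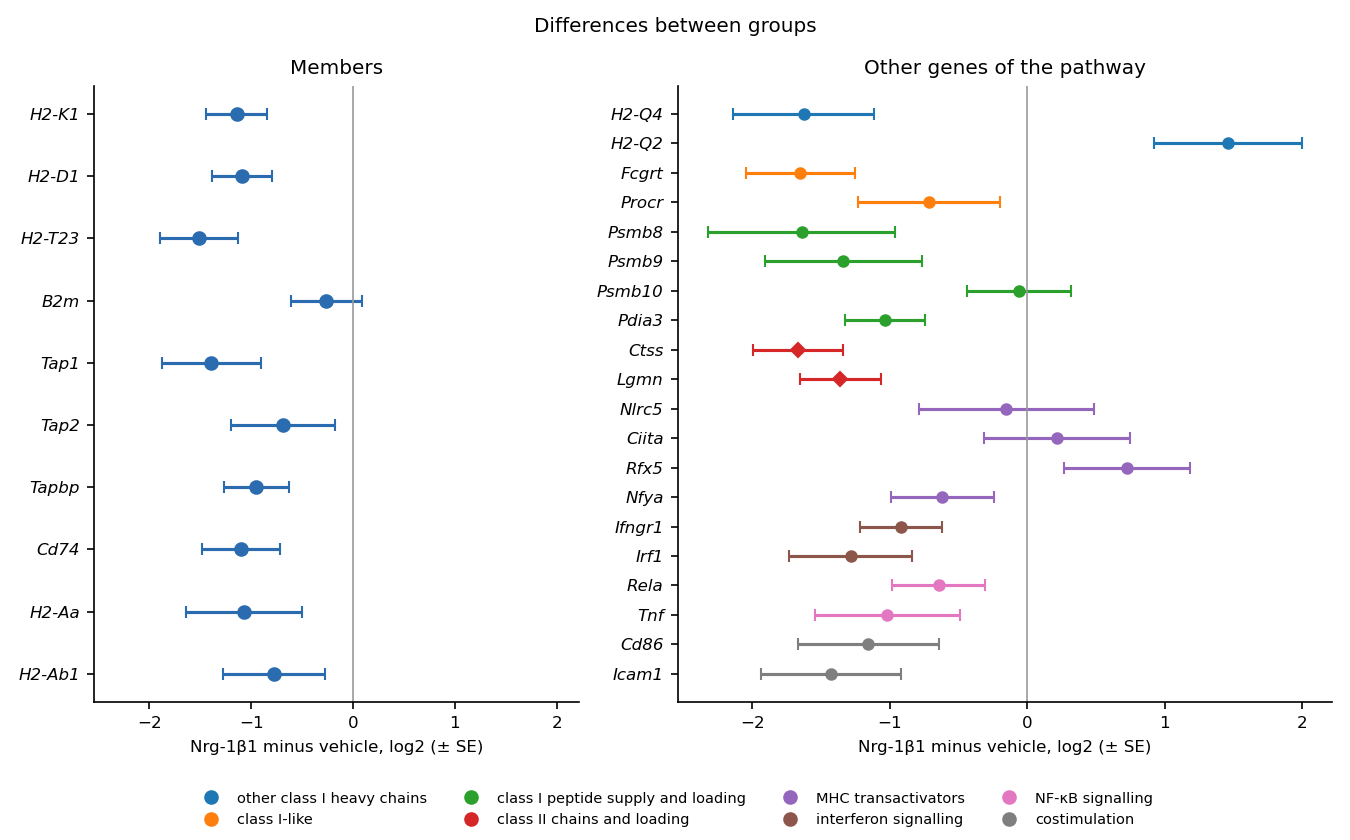
Log2 difference (Nrg-1β1 minus vehicle) with its SE for the 10 members (left) and for other genes of the pathway (right, coloured by list; diamonds passed the test). All members lie below 0, B2m within its SE of it, and the diamonds are Ctss and Lgmn.

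Markers of several other cell types moved with the group in the same direction as the MHC genes (limma for all counts here). Of 12 microglial markers 8 fell, 0 rose and 4 did not pass (median -1.46), and their summed normalized count was 6400 to 9034 in vehicle and 2345 to 3080 in Nrg. Of 12 endothelial markers 8 fell and 4 did not pass (median -2.57), with sums of 688 to 3421 in vehicle and 129 to 185 in Nrg. In both lists every marker had reads in both groups. Of 7 choroid plexus markers 4 fell and 3 did not pass (median -2.68), with sums of 1531 to 4884 in vehicle and 128 to 204 in Nrg. All 7 were without overlap, Ttr (transthyretin) fell by 4.85 ± 0.41 (SE, adjusted p = 1.01e-05), and Kcne2 had 0 reads in all Nrg libraries. Of 8 pericyte and smooth muscle markers 1 fell, Vtn (by 3.89 ± 0.58 SE, adjusted p = 0.00356), and the median was -1.42, with Des and Kcnj8 at 0 reads in all Nrg libraries. Of 6 ependymal and 7 fibroblast markers 0 passed, with 3 of each lower at an unadjusted p under 0.05 and medians of -1.40 and -1.11. Of the 9 markers of the labelled stem and progenitor cells 1 rose, Sox1 (1.96 ± 0.39 SE, adjusted p = 0.0194), while Nes, the gene of nestin itself, stood at -1.65 ± 0.42 (SE, adjusted p = 0.0582), and the median was -0.42. Of 6 oligodendrocyte progenitor markers 1 rose, C1ql1 (1.99 ± 0.45 SE, adjusted p = 0.0382), with a median of 0.65. Of 7 oligodendrocyte, 8 astrocyte and 8 neuronal markers 0 passed, with 1 lower, 4 higher and 3 higher at an unadjusted p under 0.05 and medians of -0.24, 0.71 and 0.39. Of 8 border macrophage markers 0 passed (median -0.83), with sums of 161 to 333 in vehicle and 57.7 to 128 in Nrg, and Ms4a7 had 0 reads in all Nrg libraries. The T cell markers (8 measured, sums of 11.3 to 30.6 in any library) and dendritic cell markers (8 measured, 40.8 to 86.4) gave 0 calls. The 8 T cell markers together had 7 reads in vehicle library 2 and 4, 6 and 7 in the Nrg libraries, too few to describe that cell type.

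The MHC members were then set beside these markers in each library. The summed normalized count of H2-K1, H2-D1 and H2-T23 was 720, 500 and 824 in vehicle and 289, 271 and 310 in Nrg. Divided by the microglial sum it was 0.0797, 0.0732 and 0.129 in vehicle and 0.123, 0.0879 and 0.106 in Nrg, so that the groups overlapped. Divided by the border macrophage sum it was 4.47, 1.88 and 2.48 in vehicle and 2.55, 2.12 and 5.37 in Nrg, also with overlap. Divided by the endothelial sum it was 0.241 to 0.726 in vehicle and 1.67 to 2.24 in Nrg, with every Nrg library higher. The class II sum of Cd74, H2-Aa and H2-Ab1 was 122, 127 and 134 in vehicle and 87.8, 40.9 and 54.7 in Nrg. Per microglial sum it was 0.0136, 0.0185 and 0.0209 in vehicle and 0.0374, 0.0133 and 0.0186 in Nrg, again with overlap. Per border macrophage sum it was 0.760, 0.477 and 0.402 in vehicle and 0.773, 0.320 and 0.947 in Nrg, also with overlap. The class II sum per endothelial sum was 0.0391 to 0.184 in vehicle and 0.267 to 0.68 in Nrg, without overlap. Its Nrg values rested on 17, 8 and 18 class II reads and 25, 30 and 61 endothelial reads. The part of RNA from microglia, endothelium, choroid plexus or other cells in the differences of the members was not tested.

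**Figure D5:**
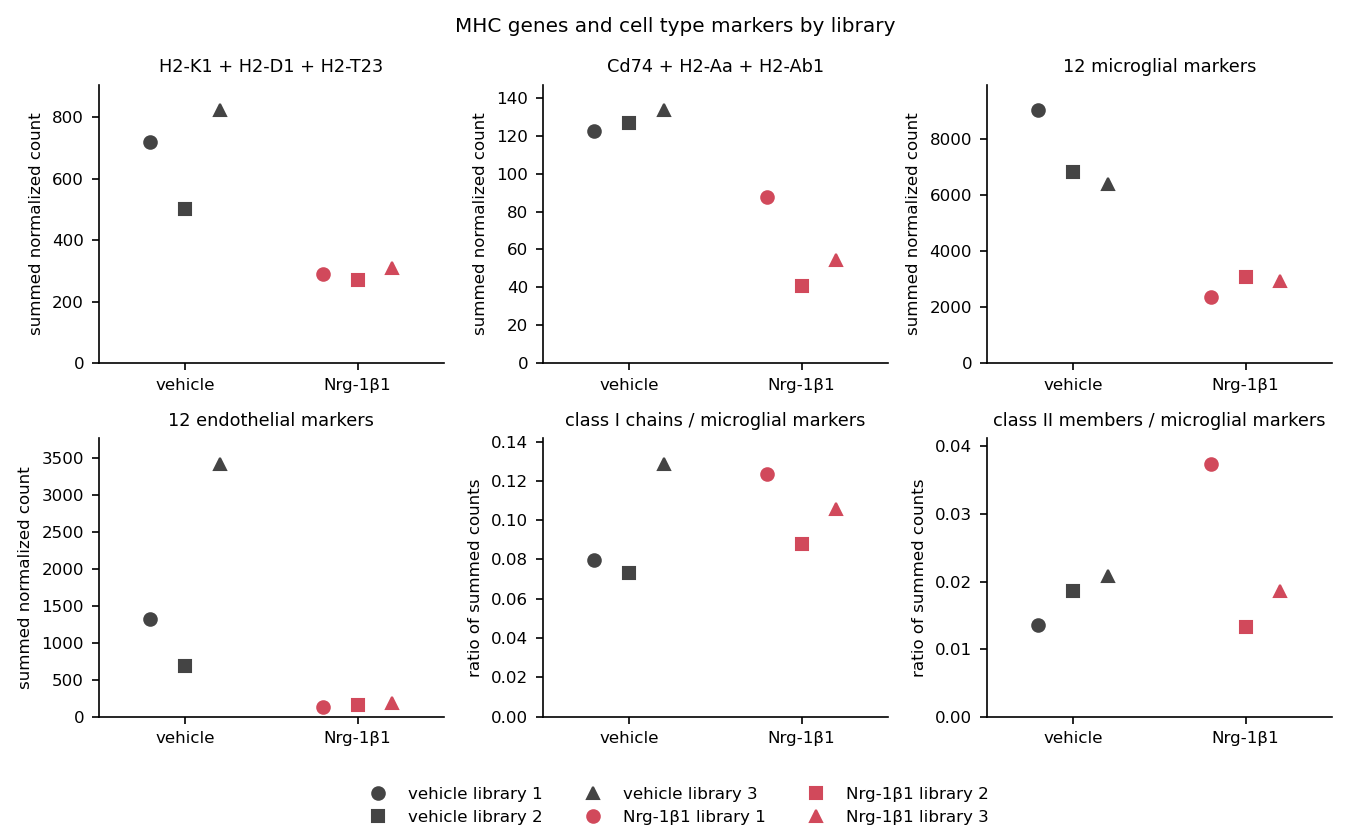
Summed normalized counts of class I heavy chains, class II members and marker lists by library, and the ratio of each class to the microglial sum. The class I, class II, microglial and endothelial sums are all lower in the Nrg-1β1 libraries (red), while both ratios overlap between the groups.

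Among 5409 other named genes with at least 10 reads in every library, the pattern over the 6 libraries most like the class I members (their mean centred log2 value) was that of Tm9sf2 and Pros1, both with a Pearson r of 0.98, followed by Smc3, Vcam1 and Sh3kbp1 (0.98, 0.98 and 0.97). For the class II members it was that of Ugt8a (0.99), Mtmr4, Asah1, Tax1bp1 and Spock3 (0.97, 0.97, 0.95 and 0.95). None of these 10 genes passed the test between the groups. An r over 0.9 was reached by 64 genes for class I and by 39 for class II. Depth and group differ together between these 6 libraries, so these values are a description only. The classes were not alike in every library. The mean centred log2 value of class I was 0.75, 0.07 and 0.69 in vehicle and -0.38, -0.29 and -0.84 in Nrg, and that of class II 0.39, 0.42 and 0.66 in vehicle and 0.03, -0.82 and -0.68 in Nrg. By these means, vehicle library 2 was the lowest vehicle library for class I and not for class II, and Nrg library 1 was the highest Nrg library for class II only. The class II values rested on 41 reads in vehicle library 2 and on 17, 8 and 18 in the Nrg libraries. Single members differed, as vehicle library 2 was the lowest vehicle library for H2-Ab1 and not for Tap1.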

How the data were processed

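RNA was sequenced from 6 libraries, 3 Vehicle and 3 Nrg, with 1 mouse each. Reads were handled with Trimmomatic and Bowtie2, per the submitters' processing notes. Not given in the sources used here are versions, genome build, read counter, strand setting and normalization. The authors deposited log2 values for 27102 genes, of which 6779 are blank in all libraries. After 4 was subtracted from the unlogged values, 100% were whole multiples of 1 step per library, within 0.02 of a read, so the deposited values were read as log2(normalized count + 4) and reads were recovered. Groups were compared with limma 3.58.1 (R 4.3.3), on log2 values with an intensity trend, over 20323 genes, with two-sided tests and Benjamini-Hochberg adjustment at 0.05, after the fit was tested on simulated data. Limma-voom on recovered reads used TMM scaling and the 6731 genes averaging 50 or more normalized counts. Alternatives changed the trend, scaling, pseudocount, filter, libraries, depth term and replicate block, and 2 (vehicle library 3 alone and scaling to library totals) were chosen after seeing the data. The members and lists were chosen with earlier results of these data known. All members are named. From each other list, genes past the threshold, the 2 smallest p-values and Nlrc5, Ciita and Psmb8 to Psmb10 are named. Added after their values were seen were Canx, H2-T22, H2-Eb1, H2-DMa, H2-DMb1, H2-DMb2, H2-Oa, H2-Ob, Ifi30, Ctsl and Ifngr2. Like patterns were ranked by Pearson r. Intervals are exact Poisson (SciPy 1.17.1). They cover counting error only, since the labels name no molecular identifiers. The p-values rest on the spread between these libraries, 1 per mouse, which holds counting error as well as differences between mice. The limma fits on log2 values give deep and shallow libraries the same variance. The result of 1 marker list is not reported here.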

Additional observations from a re-analysis of the deposited data

How the results depend on the processing

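Under 18 alternatives, 165 of 172 differences of the members kept their direction, 7 turned and 2 passed the threshold. The fits without the trend, with the filter on counts and with the replicate block cannot change a difference. Their part of the count of directions was thus fixed in advance. B2m turned to 0.0588 without vehicle library 1, 0.0854 without Nrg library 3, 0.0648 with read depth class as a term or vehicle library 2 alone, and 0.0529 with vehicle library 3 alone (its leave-one-out range was -0.50 to 0.0854). Tap2 turned to 0.32 with the depth term or vehicle library 2 alone. Depth term and vehicle library 2 alone give the same estimates, since only that vehicle library is shallow. They moved the class I median to -0.68, and a pseudocount of 16 moved the class II median to -0.63; the other medians stayed within 1 SD of the library spread. Among regulators, Ciita turned to -0.45 (depth term or vehicle library 2 alone) and to -0.0564 without Nrg library 2 (leave-one-out range -0.0564 to 0.55). Nlrc5 turned to 0.0619 (median centring), 0.0144 (pseudocount 16), 0.14 (depth term or vehicle library 2 alone) and, without 1 library, ranged from -0.72 to 0.59. Psmb10 turned to 0.0133 (quantile normalization), 0.15 (median centring), 0.31 (depth term or vehicle library 2 alone) and 0.23 (vehicle library 3 alone), with -0.25 to 0.27 without 1 library. The cause of these turns was not tested.

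The count of 216 called genes over the whole table became 21 without the trend, 65 with quantile normalization, 499 with median centring, 129 with a pseudocount of 1, 49 among genes averaging 50 or more normalized counts, 1 with voom, and 0 with the depth term, vehicle library 2 alone or vehicle library 3 alone; leaving out 1 library gave 0 to 56. Median centring moved the median of all genes from 0.03 to 0.25, and its calls were 335 higher and 164 lower, against 89 and 127. With the replicate block 627 genes were called and 2 class I members passed, H2-K1 (adjusted p = 0.0384) and H2-T23 (adjusted p = 0.0253), limma, against a range of adjusted p up to 0.726 and 0.742 over their alternatives; 0 class II members passed. The numbers do not pair the mice in the labels, and deviations from the group means of same-numbered libraries had correlations of -0.27, -0.07 and -0.30, so 0 of 3 pairs correlated above 0.1. The calls of Ctss and Lgmn, with limma, were also lost without the trend (adjusted p = 0.128 and 0.160), with the filter on counts (0.0596 for both), with voom (0.149 and 0.163), with the depth term (0.557 and 0.501), with vehicle library 2 alone (0.467 and 0.482) and with vehicle library 3 alone (0.447 and 0.418), and that of Lgmn with median centring (0.0752).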
